A study of Homo sapiens with 3 samples.

Results

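The sites described here are the well supported A-to-G sites of the ADAR catalytic domain expressed on its own in a human monocytic leukemia line, THP-1. They were chosen by their edited reads in that library, and are the positions with 5 or more such reads in the deposited list of ADARcd alone against the empty vector. The rule took 260 sites in 170 genes, of 6413 sites in that list and 16820 positions in the 3 deposited lists together. The study holds 3 libraries of total RNA, 1 per group. The groups are THP-1 cells transduced with DDX41 joined to the hyperactive catalytic domain of ADAR (DDX41-ADARcd), with that domain by itself (ADARcd alone) and with the vector carrying no transgene (empty vector). All 3 groups received pGK-GFP retroviral supernatant made in 293T cells and were harvested on day 7. The labels name no separate cultures, clones or sorted cells, so no value below has a replicate error, and no p is given. The amounts of both proteins made in the cells are not in the lists. Intervals are exact Clopper-Pearson 95% intervals on read or site counts, or order-statistic intervals of medians. They cover counting error only, since PCR copies cannot be told from separate molecules without identifiers.

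ADAR enzymes convert adenosine to inosine in double-stranded RNA, and sequencing reads inosine as G. Natural substrates are often inverted copies of interspersed repeats in 3′ UTRs and introns, which fold back on each other. In HyperTRIBE a catalytic domain without its own double-stranded RNA-binding domains, made more active by a mutation, is fused to an RNA-binding protein, so that edits mark RNAs the protein came near. DDX41 is a DEAD-box RNA helicase that is mutated in inherited and sporadic myeloid neoplasms. The domain alone is the control for edits that need no binding partner. The catalytic domain is known to prefer U or A before the edited A, to disfavour G there, and to prefer G after it.

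The sequences below, from GENCODE 29 transcripts on GRCh38, run 5′ to 3′ along the transcript, with the listed base in the centre of the capitals and its neighbour on each side. The first set shows sites with high levels in ADARcd alone: the first 5 were listed for DDX41-ADARcd at far lower levels, and the PGK1 site was not listed for it.
FTL (chr19:48966635, plus strand, coding exon): aagcttatcAAGaagatgggt
RPS3A (chr4:151104500, plus strand, coding exon): ttcatggtgAAGgcagtagtt
EEF1A1 (chr6:73518527, minus strand, coding exon): agtcaacgtTACaacggaagt
PKM (chr15:72199262, minus strand, 3′ UTR): agcaagagtTAGgggccttag
SSR2 (chr1:156009092, minus strand, 3′ UTR): gggttagagAAGtgcttacta
PGK1 (chrX:78125909, plus strand, 3′ UTR): ggcattagcTAAaaccttcca
The next sites lie in or near repeat runs (defined further on), and their intervals overlapped between both libraries.
SPN (chr16:29665299, plus strand, 3′ UTR): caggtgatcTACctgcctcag
RPL7L1 (chr6:42888380, plus strand, 3′ UTR): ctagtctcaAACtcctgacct
The SON sites recur in a repeated coding unit.
SON (chr21:33551506, plus strand, coding exon): gttagcgtcTAGcaccatgga
SON (chr21:33551536, plus strand, coding exon): gttagcaacTAGctccatgga
SON (chr21:33551566, plus strand, coding exon): gttagcaacTAGctccatgga
SON (chr21:33551596, plus strand, coding exon): gttagcaacTAGcactatgga
The last pair has G, not A, as the listed base on the reference transcript.
RARS (chr5:168510602, plus strand, coding exon): aaacacgttCGGgtgaaacag
HLA-B (chr6:31355219, minus strand, coding exon): gatgggagcCGTcttcccagt

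Of the 260 sites, 257 lay inside the gene the list names, and 256 of 258 with a base on a transcript had A there. Where the lists can show cell type markers, 14 of 18 monocytic markers had a listed position in any list, while CD14, CD33, ITGAM and MPO had none. Of the sites, 15 lay in AZU1, CTSG, ELANE, LYZ and SPN, with 9 of them in SPN. None of 4 T cell, 3 B cell, 4 erythroid, 4 epithelial and 3 fibroblast markers had a listed position. Each site had 0 edited reads in the empty vector. That library was shallow, with a median of 33 reads at these sites (range 10 to 1857) against 342.5 in ADARcd alone (26 to 5577). A count of 0 (floor of 3 reads) allowed a median level of up to 9.09% in the empty vector, and at 216 of 260 sites this limit was at or above the level in ADARcd alone. At those sites 0 edited reads still allow an equal level in the empty vector.

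The editing level, the percent of reads with G on the transcribed strand, had a median of 3.01% in ADARcd alone (2.54 to 3.53) and ranged from 0.143% to 63.9%. It was under 1% at 50 sites, 1 to 5% at 117, 5 to 10% at 38, 10 to 20% at 36 and 20% or more at 19. The highest level, among these 19, was at the RARS site, where the reference transcript has G. The next was 47.4%, in SSR2, at an A. The other 6153 sites of the list had a median of 0.412%. These levels chose the sites and are a description. Over all reads at the 260 sites, 3.62% carried the edited base and 0.137% carried a base that was neither A nor G, against 0.222% and 0.0965% at the other sites. At the 50 sites under 1% the shares were 0.5% and 0.138%. The 10 sites with most edited reads held 2778 of 6143 edited reads, or 45.2%. Just inside the threshold, at 5 edited reads, the sites with the highest levels were in SP1 (5 of 30 reads), EIF2S3 (5 of 86), SLC44A1 (5 of 90), IL10RB (5 of 95) and SON (5 of 100). Just outside it, at 4 edited reads, they included sites in EIF2B5 (4 of 31), FLOT2 (4 of 74), TUBB6 (4 of 77) and RPL7L1 (4 of 80).

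The site with most edited reads was in FTL, the light chain of the iron store ferritin. DDX41-ADARcd had 11 edited of 1563 reads there (0.704%), ADARcd alone had 816 of 2370 (34.4%), and the empty vector had 0 of 282, which allows up to 1.06%. RPS3A, a small-subunit ribosomal protein, had 3 of 769 reads edited in DDX41-ADARcd (0.39%) and 414 of 1104 in ADARcd alone (37.5%), 96.1-fold lower in DDX41-ADARcd and the largest ratio of all. The 21 bases around the RPS3A site also occur in transcripts of 8 other genes, so reads from near-identical copies could be split there. EEF1A1, the factor that brings aminoacyl-tRNA to the ribosome, had 7 of 1736 reads edited in DDX41-ADARcd (0.403%) and 407 of 2287 in ADARcd alone (17.8%) at its strongest site. The 21 bases around this EEF1A1 site occur in transcripts of 2 other genes, and those around the FTL site in 0. In FTL, RPS3A and EEF1A1 the intervals of the libraries did not overlap.

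The following named sites, in genes of other roles, were also lower in DDX41-ADARcd. PKM, the last enzyme of glycolysis, had 3 of 168 reads edited in DDX41-ADARcd (1.79%) and 116 of 279 in ADARcd alone (41.6%). SSR2, a subunit of the translocon-associated complex of the endoplasmic reticulum, had 1 of 77 in DDX41-ADARcd (1.3%) and 73 of 154 in ADARcd alone (47.4%). SRP14, a protein of the signal recognition particle, had 5 of 158 in DDX41-ADARcd (3.16%) and 45 of 203 in ADARcd alone (22.2%). At each of these the intervals of the libraries did not overlap. The sites were chosen by their reads in ADARcd alone and named for high values or ratios, so this is a description. RPS2 had 10 of 1803 reads edited in DDX41-ADARcd and 285 of 2270 in ADARcd alone, and RPS27 had 2 of 1000 in DDX41-ADARcd and 100 of 1354 in ADARcd alone.

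**Figure D1:**
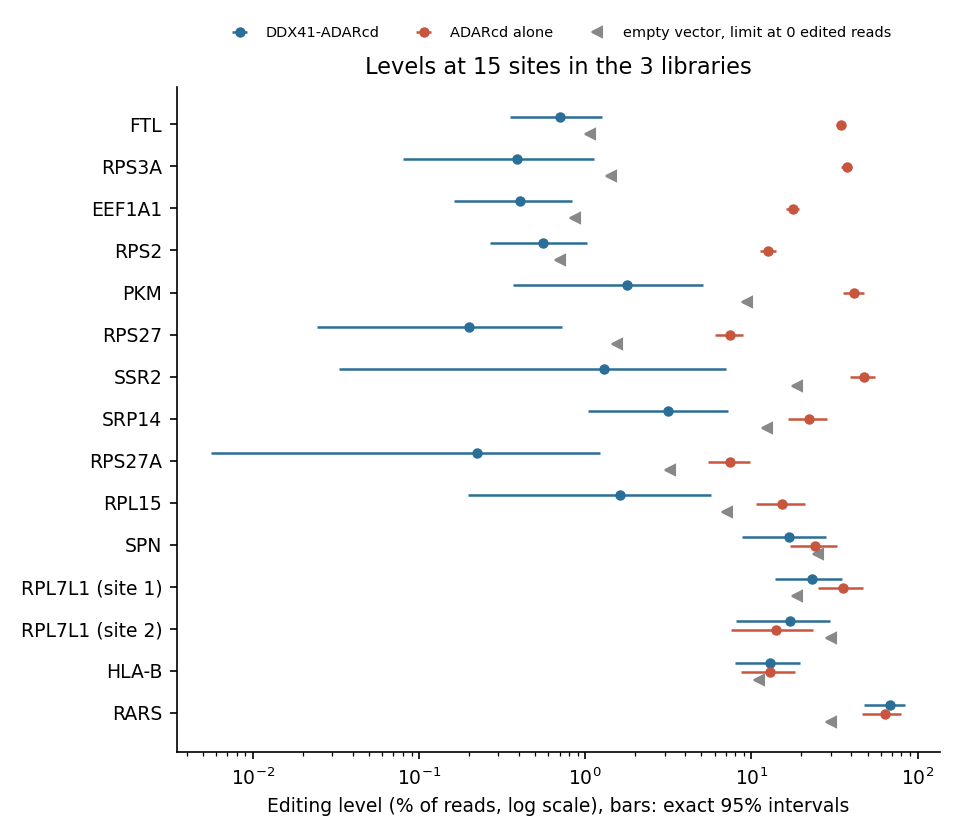
Editing level (percent of reads, log scale) at 15 sites in DDX41-ADARcd (blue, upper point), ADARcd alone (red, lower point) and the limit that 0 edited reads allow in the empty vector (grey triangle); bars are exact 95% intervals of 1 library each. The first 10 sites are far lower in DDX41-ADARcd, such as FTL at 0.704% against 34.4%, while the SPN, RPL7L1, HLA-B and RARS sites have overlapping intervals.

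Of the 260 sites, 78 (30%, 24.5 to 36.0) were also listed for DDX41-ADARcd against the empty vector, against a background of 6.27% over all 6413 sites of the list and 5.27% of the other sites. The share was 4.38% at sites with 1 edited read in ADARcd alone, 5.61% at 2, 20.6% at 3 to 4, 18.1% at 5 to 9 and 44.8% at 10 or more. It therefore went up with support but not evenly. With 2 or more edited reads asked of DDX41-ADARcd, 51 sites (19.6%) were listed. At 27 of the 78 shared sites DDX41-ADARcd had a single edited read. No site was in the list that sets DDX41-ADARcd against ADARcd alone. By the rule all 260 have 5 or more edited reads in ADARcd alone, and the filters of that list are not stated.

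**Figure D2:**
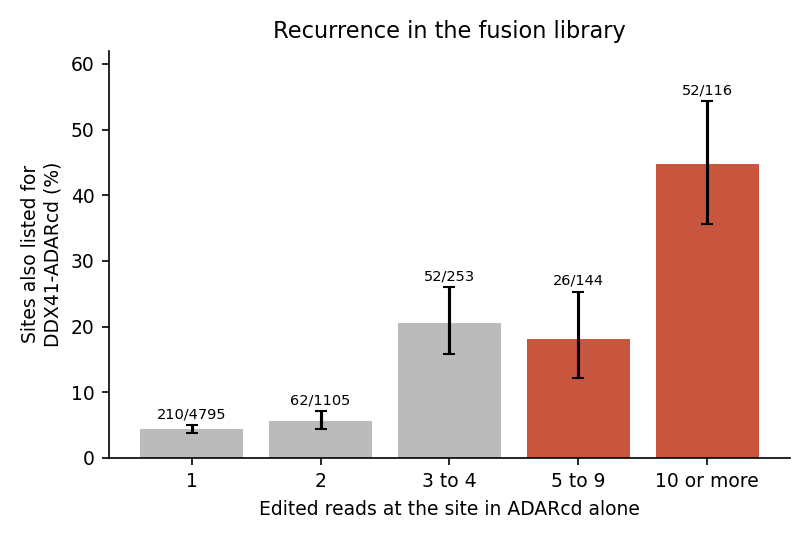
Share of sites of ADARcd alone that are also listed for DDX41-ADARcd (vertical axis, percent) by the number of edited reads in ADARcd alone (horizontal axis); bars are shares, lines exact 95% intervals, labels sites listed of sites in the class, red bars the 260 well supported sites. The share is 44.8% at 10 or more edited reads and 4.38% at 1.

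At the 78 shared sites the level had a median of 0.893% in DDX41-ADARcd (0.556 to 1.67) and 6.34% in ADARcd alone. A shared site has at least 1 edited read in DDX41-ADARcd by the way the lists are made, and the rule favours high levels in ADARcd alone, so the ratio is a description. The ratio, ADARcd alone over DDX41-ADARcd, had a median of 4.60 (3.08 to 8.31) and ranged from 0.608 to 96.1. The level was lower in DDX41-ADARcd at 72 of 78 sites. It was at least 2-fold lower at 56 (71.8%; background over all 402 shared sites 18.9%) and at least 10-fold lower at 24 (background 5.97%). It was at least 2-fold higher at 0 sites, against a background of 16.7%. Exact intervals were apart, with DDX41-ADARcd lower, at 34 sites (background 8.46%), and apart with DDX41-ADARcd higher at 0 (background 0.0%). Since the rule used the reads of ADARcd alone, nothing is read from these shares. Depth in DDX41-ADARcd was a median 0.692 of that in ADARcd alone at the 78 sites and 0.699 at the other 324 shared sites.

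**Figure D3:**
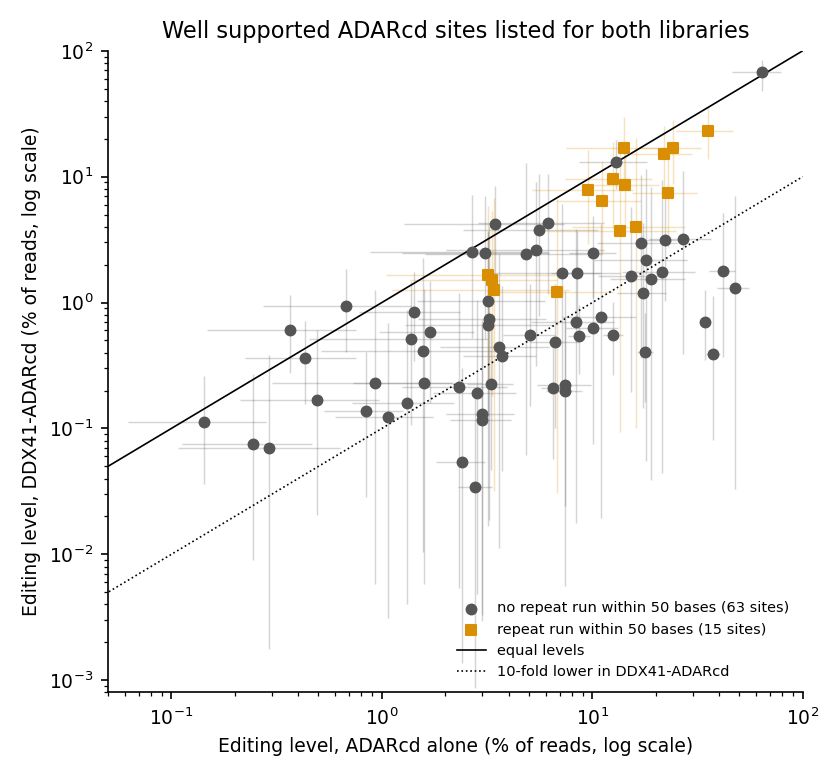
Editing level in DDX41-ADARcd (vertical) against ADARcd alone (horizontal) at the 78 shared sites, percent of reads on log scales, with exact 95% intervals; squares are the 15 sites near a repeat run, circles the other 63, among them the HFM1 site, which had no sequence to search. The solid line marks equal levels and the dotted line a level 10-fold lower in DDX41-ADARcd; the ratio has a median of 1.74 at the squares and 8.13 at the circles.

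Sites near repeats were set apart by the sequence around them, a measure chosen after the values were seen. A site was called near a repeat run when some 21-base run within 50 bases also occurs on the opposite strand of transcripts of at least 10 other genes. The gap was wide: 5 genes at most outside the class and 59 at least inside it. There were 17 such sites, in SPN (9), MCM4 (3), RPL7L1 (2), PAICS (2) and RN7SL2 (1), and 16 of them lay in 3′ UTRs. The intronic sites in HFM1 and H3F3AP4 had no transcript sequence to search and were counted with the other sites. DDX41-ADARcd listed 15 of these 17 sites near repeat runs (88.2%, 63.6 to 98.5) and 63 of the other 243 (25.9%, 20.5 to 31.9), HFM1 among them. The median level in DDX41-ADARcd was 7.41% near repeat runs and 0.604% elsewhere. The median ratio of ADARcd alone over DDX41-ADARcd was 1.74 (1.43 to 3.08) near repeat runs and 8.13 (4.22 to 10.9) elsewhere. Intervals were apart at 1 of 15 shared sites near repeat runs and at 33 of 63 elsewhere. Depth differed: DDX41-ADARcd had 25 to 133 reads at the shared sites near repeat runs and 28 to 4455 elsewhere. Intervals come apart more easily at high depth. A listed site has at least 1 edited read, so depth also limits how large its ratio can be. The part of depth in these differences was not tested. Among sites of 5% or more outside repeat runs, 31 of 81 were listed, with a median ratio of 12.2 (7.00 to 16.2). Since 9 of the 17 are in 1 gene, the sites share their source: without SPN, 6 of 8 were listed, with a median ratio of 3.37.

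SPN encodes CD43, a sialoglycoprotein of white blood cells. Its 9 sites span 216 bases of the 3′ UTR and follow the same profile in both libraries. The strongest had 11 of 65 reads edited in DDX41-ADARcd (16.9%) and 30 of 124 in ADARcd alone (24.2%), and the next had 11 of 73 in DDX41-ADARcd (15.1%) and 30 of 137 in ADARcd alone (21.9%). All 9 intervals overlapped, though the level was lower in DDX41-ADARcd at all 9. The ratios of ADARcd alone over DDX41-ADARcd ran from 1.22 to 2.72. RPL7L1, a relative of a ribosomal protein, is in the gene list of known endogenous substrates. It had 16 of 69 reads edited in DDX41-ADARcd (23.2%) and 29 of 82 in ADARcd alone (35.4%) at one 3′ UTR site. At the other it had 9 of 53 in DDX41-ADARcd (17%) and 12 of 85 in ADARcd alone (14.1%). Editing by the cells' own ADAR was not tested: the empty vector had 10 to 17 reads at the SPN and RPL7L1 sites, which allows levels of 17.6% to 30%. At the RPL7L1 site with 35.4% in ADARcd alone the limit was 18.8%, below the level in both transduced libraries. At the SPN site with 21.9% in ADARcd alone the limit was 21.4%. Elsewhere in SPN and RPL7L1 the limit was above the level in ADARcd alone.

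EEF1A1 had 6 sites over 776 bases. The 3 strongest had levels of 0.403%, 0.538% and 0.208% in DDX41-ADARcd and 17.8%, 8.64% and 6.53% in ADARcd alone. SON, a nuclear protein that aids splicing, had 4 coding sites at 0, 30, 60 and 90 bases from the first. They had levels of 34.0%, 6.93%, 5% and 5.45% in ADARcd alone. Each lies at the same place of a repeated unit, and the printed bases of the sites at 30 and 60 bases are identical, so reads could be split between them. None was listed for DDX41-ADARcd, where other positions of SON within 50 bases had 51 to 64 reads.

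Of the 170 genes, 121 had 1 site, 30 had 2, 8 had 3 and 11 had 4 or more, and 53 sites (20.4%) had another within 100 bases. EEF2, the factor that moves the ribosome along the message, had 6 coding sites between 0.71% and 3.71% in ADARcd alone. Its strongest had 2 of 527 reads edited in DDX41-ADARcd (0.38%) and 26 of 700 in ADARcd alone (3.71%). EEF1G, a subunit of the elongation factor 1 complex, had 1 edited read in DDX41-ADARcd at each of 3 listed sites, against 30 of 1005, 20 of 704 and 13 of 558 reads in ADARcd alone. RPS3 had 3 of 617 reads edited in DDX41-ADARcd and 56 of 841 in ADARcd alone at its 3′ UTR site, and 4 of 720 in DDX41-ADARcd and 48 of 950 in ADARcd alone at its strongest coding site. All 3 genes were lower in DDX41-ADARcd at each listed site. ACTB, cytoplasmic actin, was mixed: of its 5 sites 4 were listed, with ratios of ADARcd alone over DDX41-ADARcd of 6.08, 3.27, 1.19 and 0.608. All 5 lay under 1% in ADARcd alone. In that order, the 4 had 23, 9, 12 and 7 edited reads there. Reads with a base other than A and G numbered 2, 4, 7 and 9. Sites also lay in granule protein genes of myeloid cells. AZU1 had 1 of 808 reads edited in DDX41-ADARcd and 15 of 1409 in ADARcd alone (1.06%) at its strongest site. LYZ, lysozyme, had 10 of 216 reads edited in ADARcd alone (4.63%), CTSG had 8 of 296 (2.70%) and ELANE 7 of 576 (1.22%) at their strongest, and none of these was listed for DDX41-ADARcd.

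**Figure D4:**
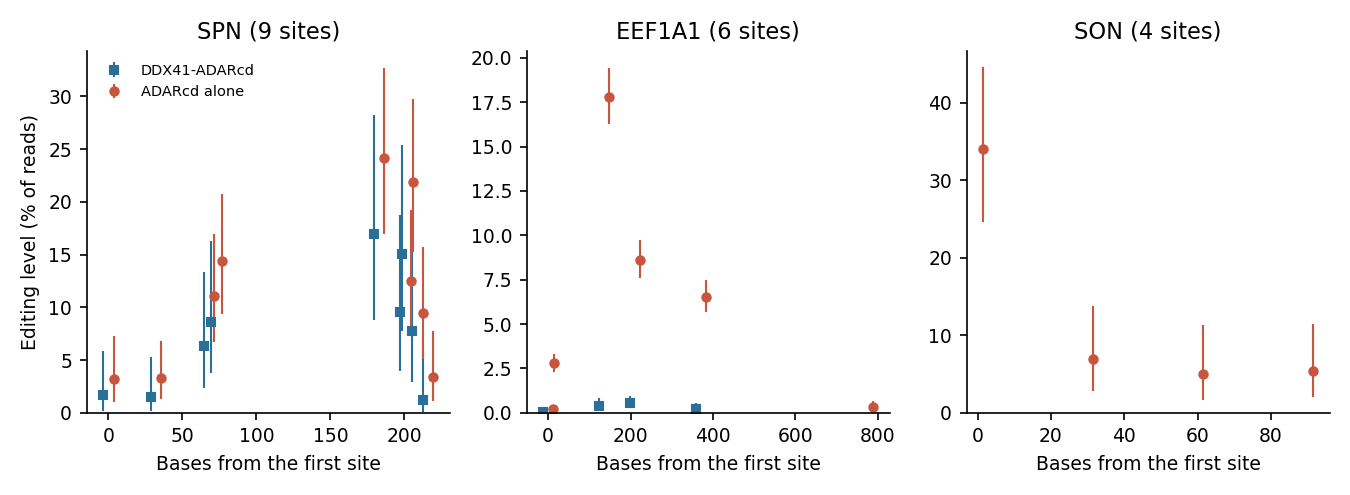
Editing level (percent of reads) against bases from the first site in SPN, EEF1A1 and SON, with exact 95% intervals; blue squares are DDX41-ADARcd and red circles ADARcd alone, shifted slightly left and right of their shared position, and a site with no square was not listed for DDX41-ADARcd. In SPN the intervals overlap at all 9 sites, with each square below its circle. In EEF1A1 the squares lie under 1%, and in SON there are no squares.

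The 182 sites that were not listed for DDX41-ADARcd had a median level of 2.31% in ADARcd alone and reached 38.5%. For these the fusion's reads are not in the lists, so an unlisted site may have had reads and no edit, or too few reads. At 69 of them another position of the same gene within 50 bases was listed for DDX41-ADARcd, with a median of 493 reads (51 to 2929). Of the 19 sites at 20% or more, 7 were unlisted. PGK1, a glycolytic kinase, had 83 of 280 reads edited in ADARcd alone (29.6%). TPI1, another glycolytic enzyme, had 38 of 174 (21.8%), and DDX41-ADARcd had 108 reads at a listed position 12 bases away. QKI, an RNA-binding protein, had 10 of 26 (38.5%) and MAN2B1, a lysosomal mannosidase, had 23 of 76 (30.3%).

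The 10 smallest ratios among sites with 20 or more reads in both libraries ran from 0.608 to 1.24 and came from sites of several kinds. RPL7L1 and SPN gave 1 each, near repeat runs. CHD3;SCARNA21, a position shared by a chromatin remodeller gene and a small Cajal body RNA, had 7 of 167 reads edited in DDX41-ADARcd (4.19%) and 6 of 174 in ADARcd alone (3.45%). EMB, embigin, had 3 of 121 in DDX41-ADARcd (2.48%) and 7 of 227 in ADARcd alone (3.08%) at its listed 3′ UTR site. Both have A on the transcript, and no read in ADARcd alone carried another base there. RARS, the arginyl-tRNA synthetase gene, had 19 of 28 reads with G in DDX41-ADARcd (67.9%) and 23 of 36 in ADARcd alone (63.9%), against 0 of 10 in the empty vector. HLA-B, a class I histocompatibility gene, had 19 of 146 in DDX41-ADARcd (13%) and 27 of 209 in ADARcd alone (12.9%), against 0 of 27 in the empty vector. At both, G is the reference base, as printed above. At 7 sites the reads with a base other than A and G equalled or outnumbered the edited reads in ADARcd alone. They were ND4 at both its sites (14 edited and 16 other-base reads, and 7 edited and 20 other-base reads), ACTB at one site (7 edited and 9 other-base reads), MEF2D (5 edited and 12 other-base reads), HFM1 (5 edited and 11), CLEC11A (7 edited and 18) and RN7SL2 (7 edited and 10). Of these 7, 5 were listed for DDX41-ADARcd with a median ratio of 1.07, against 5.59 at the 73 other shared sites. The part of these reads in the result was not tested.

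The shares to set beside each gene list are the 30% of the 260 sites that were listed and the 71.8% of the 78 shared sites that were at least 2-fold lower, with 6.27% and 18.9% over all sites. Cytosolic ribosomal proteins held 59 sites in 30 genes, 22.7% of the 260 sites and 13.2% of the other sites. Their levels in ADARcd alone ran from 0.258% to 37.5% with a median of 1.23%, against 3.01% at all 260 sites. The rule counts edited reads, so deeply read genes can pass it at low levels. Nothing is therefore read from the share of the 260 sites that this or any other list held. DDX41-ADARcd listed 14 of the 59, all 14 at least 2-fold lower, with a median ratio of 14.9. Elongation and initiation factors held 21 sites in 7 genes (8.08% of the 260 sites and 4.13% of the other sites), of which 9 were listed, all 9 at least 2-fold lower. Actin and its regulators held 13 sites in 7 genes, of which 4 were listed and 2 at least 2-fold lower. Glycolysis held 11 sites in 6 genes, with only the PKM site listed. The SRP, translocon and ER folding list held 5 sites, with 3 listed and all 3 at least 2-fold lower, and ferritin held 4 in FTL, with 2 listed and both lower by that much. The MCM and proliferation list held 7 sites, with 4 listed and 3 at least 2-fold lower. The hnRNP and nuclear RNA-binding list held 5 sites, 1.92% against 4.55% of the other sites, and 1 was listed. The remaining lists held 2 sites or fewer: ND4 2, the MHC class I list 2, the snoRNA hosts SNHG5 and LRRC75A-AS1 1 each, RPL7L1 2, and the chaperone HSPA8 1. In all, 134 of 260 sites lay in a list.

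**Figure D5:**
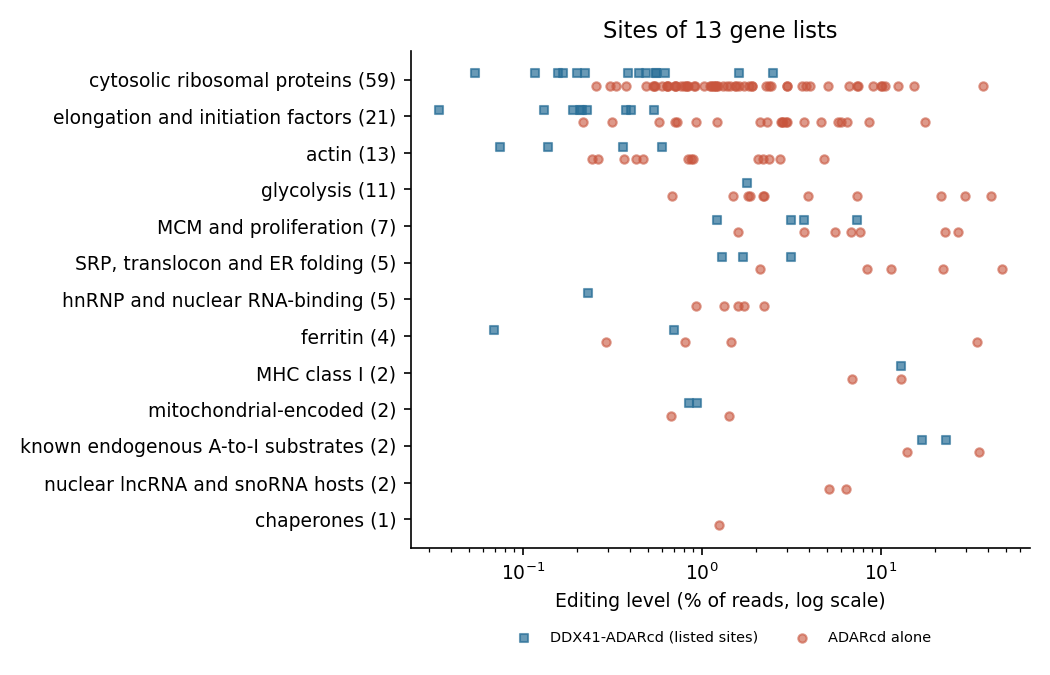
Editing level (percent of reads, log scale) of each site of the 13 gene lists, with the number of sites in brackets; blue squares are DDX41-ADARcd at listed sites, drawn above the red circles of ADARcd alone. Squares of the ribosomal protein and translation factor lists lie between 0.0341% and 2.49%, and those of RPL7L1 and HLA-B lie at 13% or more.

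The bases beside the edited A were not used by the rule. T came before it at 44.9% of the sites (38.7 to 51.2, n = 256), at 16.3% of the other sites and at 16.7% of the 129472 A of the 170 transcripts. G came before it at 4.30% of the sites and 26.3% of the other sites, and A at 34.8% of the sites and 30.2% of the other sites. G came after it at 55.1% of the sites (48.8 to 61.3), 39.5% of the other sites and 28.8% of all A. T before with G after, as at PKM, was found at 19.5% of the sites, 4.69% of the other sites and 3.38% of all A. T before went from 34.0% of sites under 1% to 39.1% at 1 to 5%, 57.9% at 5 to 10%, 54.3% at 10 to 20% and 66.7% at 20% or more. By edited reads it was 15.3% at 1, 17.2% at 2, 30.9% at 3 to 4, 45.8% at 5 to 9 and 43.9% at 10 or more. At the lowest support the share with T before is close to that of all A, while sites with 3 or more edited reads stood above it. G after was not: at 38.4% of sites with 1 edited read it was already above the 28.8% of all A. Sites are not replicates, and no p is given.

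Sites lay in coding exons at 65.8% (171 sites) and in 3′ UTRs at 31.2% (81). Of the 6153 other sites, 72.6% were coding and 1230 lay in 3′ UTRs. Of the rest, 1 was in a 5′ UTR (FTL), 5 in non-coding exons and 2 in introns. The 3′ UTR share was 18% under 1% and 52.6% of the 19 sites at 20% or more. That top class includes 3′ UTR sites of SPN, RPL7L1 and MCM4 near repeat runs. With 5 or more edited reads required, sites at low levels are deeply read ones, so the classes also differ in depth. Where a position is coding in one transcript and 3′ UTR in another, the order of priority decides: with 3′ UTR first, 52.3% were 3′ UTR and 44.6% coding. Outside repeat runs the ratio of ADARcd alone over DDX41-ADARcd had medians of 8.13 in coding exons (41 shared sites) and 8.48 in 3′ UTRs (19 shared sites).

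The predicted pairing of the edited A in a window of 50 bases on either side had a median probability of 0.0779 (0.0499 to 0.142), against 0.185 at the other sites and 0.248 at 2976 other A within 25 bases in the same windows. Near repeat runs it was 0.642, and 0.0691 elsewhere. The window holds one strand of a nearby stretch and cannot show pairing with a distant copy. The 21 bases around the site occur in a transcript of another gene at 97 sites (37.3%), and at 33.8% of the other sites. Such runs were found at 60% of the sites under 1%. At these sites reads could be split between copies, and their levels are uncertain.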

How the data were processed

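HyperTRIBE RNA sequencing covered 3 THP-1 libraries, grouped by the transgene in the labels. The deposited values are counts: per the file headers, reads with each base at 1 position in 2 libraries, without normalization. The submitters' processing notes name CASAVA 1.4, FastQC 0.11.7, STAR 2.5 and mm10, with no role. The caller and its filters are not stated there. No column names its library, so the one that comes first in each title was read as edited and the other as control. Empty vector reads agreed at 402 of 402 positions shared between lists, and DDX41-ADARcd reads at 3114 of 3114. Coordinates match human GENCODE 29 on GRCh38, which gave annotation and transcripts. Of 6547 entries, 134 repeating a position for another gene were joined.

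Levels, intervals and ratios were computed with Python 3.11.15, pandas 2.3.3 and SciPy 1.17.1, and pairing with ViennaRNA 2.7.2. The calculation of ratios and intervals was checked on simulated data. Groups were not compared by a significance test, since each has 1 library. The sites and gene lists were chosen with earlier results of these data known. Named sites are the 10 with most edited reads, the 10 with the highest level and 20 or more reads in both libraries, the genes with most sites, the 10 largest and 10 smallest ratios, up to 3 per list, and those next to the threshold; the monocytic markers holding a site are named as a check of the cells, and QKI, MAN2B1 and the 7 sites with as many other-base as edited reads, were named after their values were seen. Alternatives changed the read minimum, level, fold, region priority, window and sites kept. Sites on chromosome 8 have no sequence printed. A few named sites and 1 sequence are not reported here.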

Additional observations from a re-analysis of the deposited data

How the results depend on the processing

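Across 17 settings, 90 values were recomputed: 70 stayed within the interval of the main value or, for counts, within 1.5 times of it, 20 moved and 0 reversed. With 3 or more edited reads there were 513 sites, a median ratio of 2.35, 3 sites at least 2-fold higher in DDX41-ADARcd, and T before the A at 38.0%. With 10 or more there were 116 sites, 44.8% listed, and a median ratio of 9.28. At levels of 5% or more there were 93 sites, 46.2% listed, a median DDX41-ADARcd level of 1.79%, 31 sites at least 2-fold lower, and T before at 58.2%. Asking 2 edited reads of DDX41-ADARcd left 19.6% listed, and taking unlisted sites as 0 gave a median level of 0%. Intervals apart left 34 sites lower. With 3′ UTR before coding exon the shares were 52.3% and 44.6%. Without sites whose run another gene holds, a setting added after seeing the data, 33 sites were at least 2-fold lower, 41.7% lay in 3′ UTRs and 54.6% in coding exons. That setting also gave a median DDX41-ADARcd level of 1.54%, inside the interval of the main value. Leaving out repeat-run sites, also added after seeing the data, gave a median ratio of 8.13, against 4.60 with them, and a median DDX41-ADARcd level of 0.604%, against 0.893%. Taking 1 site per gene, or levels of 5% or more, gave a median ratio of 7.00. Leaving out sites with G in the reference, likewise added, gave a median ratio of 4.88. No paired analysis was possible because each group has 1 library and the result comes from no test. The share in masked repeats was not run, as no genome sequence was used here.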
